A study of Mus musculus with 6 samples.

Results

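Keratins are the intermediate filament proteins of epithelial cells, and each filament is built from pairs of a type I and a type II keratin, so that neither type forms filaments alone. In the pancreas, Krt8 (type II) and Krt18 (type I) are the filament pair of acinar cells, and duct cells add Krt19 (type I) and Krt7 (type II), which is why keratin 19 is widely used as a duct marker when acinar cells take on duct-like features. Krt20 and Krt23 are further type I keratins of simple epithelia, and Krt23 was first described in pancreatic cancer cells treated with histone deacetylase inhibitors. The rule chose these 6 genes by name, without use of their values. Of the 6, 5 are among the 10245 genes of the deposited table, namely Krt7, Krt8, Krt18, Krt19 and Krt23, and Krt20 is not listed there. These 5 are also all the genes of the table whose symbol is Krt and a number.

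Whole pancreas was profiled by RNA-seq in 3 controls of genotype Ptf1a(CreER/+) and in 3 Ptf1a conditional knock-out (cKO) mice of genotype Ptf1a(CreER/fl). Ptf1a encodes a transcription factor that maintains acinar cell identity, and both genotypes carry the allele that places tamoxifen-inducible Cre in the Ptf1a locus and inactivates that copy, so the controls are heterozygous for Ptf1a. All mice received tamoxifen by gavage at 0.25 mg/g on days 0, 1 and 2 and were killed on day 14, the controls at an age of 4 months and the Ptf1a cKO mice at 5 months, so that age and genotype cannot be told apart. Each group held 1 male and 2 females, Cre was active in cells that express Ptf1a (mainly acinar cells), and Ptf1a cKO pancreata could keep acinar cells that escaped recombination.

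Ptf1a itself had 566, 601 and 652 normalized counts in the control libraries and 19.8, 70.1 and 10.2 in Ptf1a cKO replicates 1, 2 and 3. Values are normalized read counts, placed by the authors on a common scale on which the median gene lay between 125.0 and 128.5 in every library. Digestive enzymes and other secreted acinar proteins took 83.6% to 86.1% of the counts on genes in the control libraries and 39.4% to 66.1% in the Ptf1a cKO libraries. With an adjusted p-value under 0.05 (limma on log2 values, two-sided, Benjamini-Hochberg over all 10245 genes), 33.9% of genes differed, 17.1% being higher and 16.8% lower in Ptf1a cKO. Of the called genes 50.4% were higher, a share that became 98.7% with libraries set to an equal total and 31.0% with an equal total outside the digestive enzymes. Ptf1a cKO replicate 2 stood apart from the other Ptf1a cKO libraries, with the most remaining Ptf1a, the highest share of digestive enzymes (66.1%) and the highest Mki67, a marker of dividing cells (256 normalized counts against 59.9 and 76.6). It was also the only male of the Ptf1a cKO mice, so its sex and these other traits cannot be told apart. The male of the controls was control replicate 1.

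The stretches upstream of Krt18, Krt8 and Krt23 are shown because Krt18 and Krt8 are neighbouring partner genes whose ratio differed between genotypes, and because Krt23 had the largest change of the 5 keratins. Krt8 (type II, chromosome 15 of GRCm38 from 101996698 to 102004482, minus strand) and Krt18 (type I, chromosome 15 from 102028180 to 102032027, plus strand) are 23.7 kb apart and are transcribed away from each other. Krt23 lies on chromosome 11 from 99477974 to 99493137, minus strand, in the type I cluster that also holds Krt19 (100140810 to 100148665). Sequences are those of RefSeq on GRCm38.p6, written 5′ to 3′ on the gene's strand, and capitals mark matches to the E-box CANNTG, the core motif of basic helix-loop-helix factors such as PTF1A, and to TTTCCC on either strand, the TC-box that accompanies the E-box in PTF1 binding sites.
Krt18, chr15:102027966-102028179: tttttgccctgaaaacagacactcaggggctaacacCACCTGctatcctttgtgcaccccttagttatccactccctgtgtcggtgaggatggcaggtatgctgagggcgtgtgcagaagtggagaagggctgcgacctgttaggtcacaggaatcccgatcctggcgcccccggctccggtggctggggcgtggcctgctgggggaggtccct
Krt8, chr15:102004483-102004592: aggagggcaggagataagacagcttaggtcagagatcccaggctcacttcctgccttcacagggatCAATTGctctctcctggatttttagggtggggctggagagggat
Krt23, chr11:99493138-99493370: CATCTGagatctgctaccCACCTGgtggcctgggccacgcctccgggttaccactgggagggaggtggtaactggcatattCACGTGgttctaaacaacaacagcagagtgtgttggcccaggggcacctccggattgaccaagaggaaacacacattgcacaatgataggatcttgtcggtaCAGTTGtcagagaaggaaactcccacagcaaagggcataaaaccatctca
Printed are the 214 bases of Krt18, 110 of Krt8 and 233 of Krt23 that lie outside the GENCODE gene bounds given above, out of windows of 250 bases before the RefSeq start. The RefSeq starts lie 36, 140 and 17 bases inside the GENCODE genes, and that of Krt7 lies 1360 bases inside, so that the whole Krt7 window falls within the annotated gene and is not shown. The printed stretches hold 4 E-boxes for Krt23, 1 (CACCTG) for Krt18 and 1 (CAATTG) for Krt8. The remaining 140 bases of the Krt8 window, inside the gene, hold a CACCTG and the TTTCCC. At least 1 E-box was found in 66.2% of the 32851 RefSeq windows of 250 bases and TTTCCC in 21.9%. The share of windows with 4 E-boxes was not counted, so the number for Krt23 has no background. In the windows of Krt18, Krt8 and Krt23 there was no match to the GC-box GGGCGG, a site of SP1 and KLF factors (32.7% of all windows), to TGANTCA, the AP-1 site (6.75%), or to TATAAA (12.4%), counting both strands. The Krt7 window held 4 GC-box matches and none to TGANTCA or TATAAA. These matches describe the letters of these windows only, and a window for Krt19 was not used here.

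Krt23 and Krt18 were called higher in Ptf1a cKO pancreata and no keratin was called lower. The call of Krt18 lay at the threshold and held in 1 of 6 fits with a library left out, that of Krt23 in 6 of 6. Krt23 rose by 0.82 on the log2 scale and Krt18 by 0.45, whereas Krt7, Krt8 and Krt19 did not pass the test. This is 2 of 5 keratins called, against 33.9% of all genes in either direction and 17.1% higher. The groups did not overlap for Krt23 and Krt18, 2 of 5, whereas they did not overlap for 50.8% of all genes (26.5% higher and 24.3% lower in Ptf1a cKO). The median change over the 5 keratins was 0.44 in log2 units, which is the value of the uncalled Krt7, against 0.036 over the whole table. It was 0.17 without Ptf1a cKO replicate 3, 0.29 without replicate 2 of that group and 0.28 with an equal total outside the digestive enzymes.

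**Figure D1:**
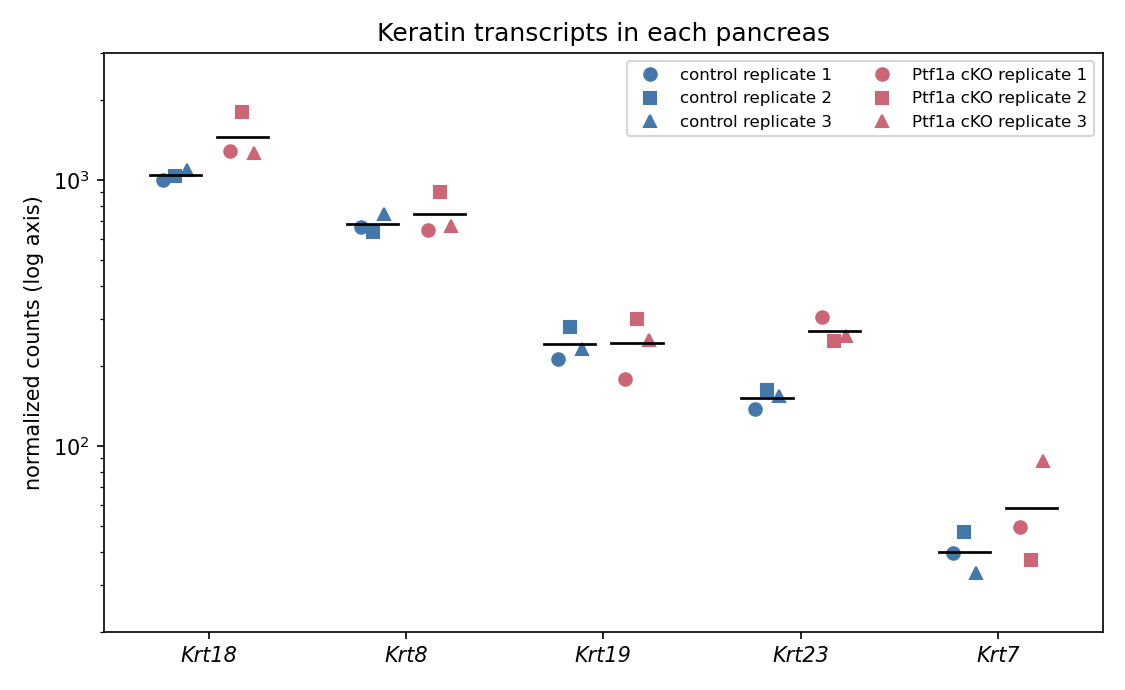
Normalized counts (log axis) of the 5 keratins in each library, with controls in blue, Ptf1a cKO in red, a marker shape for each replicate number and a black line at the mean of each group (n = 3). The 3 Ptf1a cKO values of Krt23 (248 to 305) and of Krt18 (1258 to 1795) lie above all control values, and the groups overlap for Krt8, Krt19 and Krt7.

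Krt18, the type I keratin of acinar cells, had 1003, 1034 and 1087 normalized counts in the control libraries and 1280, 1795 and 1258 in Ptf1a cKO replicates 1, 2 and 3. Every Ptf1a cKO library was thus above every control, with replicate 2 well above the others. The means were 1041 ± 42.4 and 1444 ± 304 (SD, n = 3 each), giving an estimate of 0.45 log2 units (SE 0.15, limma adjusted p = 0.0472). This call lies at the threshold. It held in 1 of 6 fits with a single library left out, and the estimate was lowest (0.29, limma adjusted p = 0.0868) when Ptf1a cKO replicate 2 was dropped and highest (0.54, limma adjusted p = 0.0380) when Ptf1a cKO replicate 3 was dropped. The other limma adjusted p-values were 0.140, 0.125 and 0.0760 without control replicates 1, 2 and 3 and 0.0544 without Ptf1a cKO replicate 1. With the libraries scaled by the median of ratios it was 0.43 (limma adjusted p = 0.0640), and with an equal total outside the digestive enzymes 0.28 (limma adjusted p = 0.278).

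Krt8, the type II partner of Krt18, had 666, 638 and 747 normalized counts in the control libraries and 650, 905 and 671 in the Ptf1a cKO libraries. Replicate 2 was again the highest Ptf1a cKO library, and the others lay within the range of the controls. Its estimate was 0.10 log2 units (SE 0.15, limma adjusted p = 0.614), with a 95% interval from -0.23 to 0.44, that is from 0.853-fold to 1.35-fold. Without Ptf1a cKO replicate 2 it was -0.046. The annotation names a processed pseudogene of Krt8 (Krt8-ps, chromosome 7 from 23357125 to 23358069), and the authors counted only reads with a unique alignment, so reads shared by gene and pseudogene would be missing from both. A long non-coding gene on the opposite strand, Gm36026, overlaps Krt8, and whether the counting used strand is not given in the sources used here.

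Krt19, the duct keratin, had 212, 279 and 232 normalized counts in the control libraries and 178, 299 and 251 in the Ptf1a cKO libraries. The lowest and the highest of the 6 values were both from Ptf1a cKO mice. The means were 241 ± 34.3 and 243 ± 60.8 (SD, n = 3 each). The estimate was -0.012 log2 units (SE 0.19, limma adjusted p = 0.966), and its 95% interval reached from -0.44 to 0.42, from 0.737-fold to 1.33-fold. A rise of the whole-organ Krt19 level above 1.33-fold was thus outside this interval on the authors' scale. Dropping Ptf1a cKO replicate 2 gave -0.18 and dropping Ptf1a cKO replicate 1 gave 0.19, the extremes over the 6 single omissions. In whole tissue, a different number of cells of a type and a different amount of RNA per cell cannot be told apart, for Krt19 and for every gene named here.

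Krt7, the type II keratin of ducts (chromosome 15 from 101411043 to 101430313, plus strand), had 39.5, 47.5 and 33.2 normalized counts in the control libraries and 49.8, 37.4 and 87.9 in the Ptf1a cKO libraries. Its mean was 1.46-fold higher in Ptf1a cKO, but that difference came from replicate 3, and replicate 2 lay within the controls. The estimate was 0.44 log2 units (SE 0.29, 95% interval from -0.22 to 1.09, limma adjusted p = 0.270). It was 0.11 when Ptf1a cKO replicate 3 was dropped and 0.69 when replicate 2 was dropped (limma adjusted p = 0.0705). Krt7 had the lowest level of the 5 and lay in the lower part of all genes, with 16.6% of genes below its control mean, and an antisense gene, Gm671, overlaps it.

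Krt23 had 138, 163 and 154 normalized counts in the control libraries and 305, 248 and 259 in the Ptf1a cKO libraries. The groups were apart, with a gap between the highest control and the lowest Ptf1a cKO library that was wider than the range within the controls. The means were 152 ± 12.6 and 271 ± 30.1 (SD, n = 3 each), giving an estimate of 0.82 log2 units (SE 0.13, 95% interval from 0.54 to 1.10, limma adjusted p = 0.00150). The 95% interval corresponds to 1.45-fold to 2.15-fold. The call held in 6 of 6 fits with a single library left out, with changes between 0.73 and 0.88. Of all genes, 89.4% had a smaller log2 fold change than Krt23, against 78.0% for Krt18 and 46.0% for Krt19. Unlike Krt8 and Krt18, Krt23 was lowest in replicate 2 among the Ptf1a cKO libraries, though no test was made of that order. By an exact permutation test on the log2 values, Krt23 and Krt18 each gave a two-sided p of 0.10, the floor of a design with 3 mice per group.

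**Figure D2:**
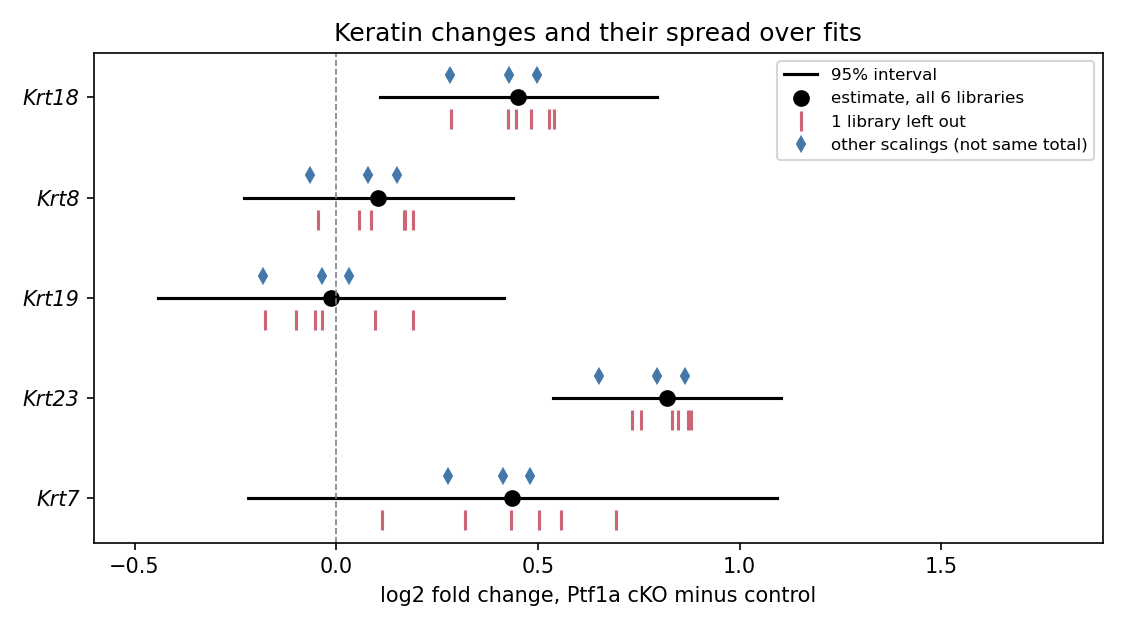
Log2 fold change of each keratin (Ptf1a cKO minus control, n = 3 each) on the horizontal axis, with the limma estimate as a black point, its 95% interval as a line, red ticks for fits with 1 library left out and blue diamonds for 3 other scalings of the libraries. The ticks and diamonds of Krt23 all lie above 0, as do those of Krt18 and Krt7, and those of Krt8 and Krt19 fall on both sides of 0. The scaling to the same total, under which the median of all genes is 1.49, is not drawn.

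Because a ratio of 2 genes within a library does not depend on how the libraries are scaled, the keratins were also compared with one another. The ratio of Krt18 to Krt8 was 1.51, 1.62 and 1.45 in the control libraries and 1.97, 1.98 and 1.87 in the Ptf1a cKO libraries. All Ptf1a cKO values were above all control values, and replicate 2, which had the highest counts of both genes, did not stand apart in the ratio. The means were 1.53 ± 0.085 and 1.94 ± 0.059 (SD, n = 3 each), a difference of 0.35 on the log2 scale with a pooled SD of 0.064 between libraries (two-sided exact permutation p = 0.10, which is the floor). With single libraries left out the difference ran from 0.31 to 0.39. For comparison, the ratio to Krt8 was higher in all Ptf1a cKO libraries than in all controls for 11.7% of genes and lower in all of them for 23% of genes.

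The ratio of Krt19 to Krt18 was 0.212, 0.270 and 0.214 in the control libraries and 0.139, 0.167 and 0.200 in the Ptf1a cKO libraries, and so was lower in every Ptf1a cKO library. The log2 difference was -0.47 with a pooled SD of 0.23 (exact permutation test, two-sided p = 0.10), and it ran from -0.60 to -0.34 with single libraries left out. The background here was broad, since 46.3% of genes had a ratio to Krt18 that was lower in all Ptf1a cKO libraries than in all controls, and 5.3% had one that was higher. The ratio of Krt7 to Krt8 overlapped between groups, with 0.0592, 0.0745 and 0.0444 in control and 0.0765, 0.0413 and 0.131 in Ptf1a cKO libraries (exact permutation test, two-sided p = 0.60).

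**Figure D3:**
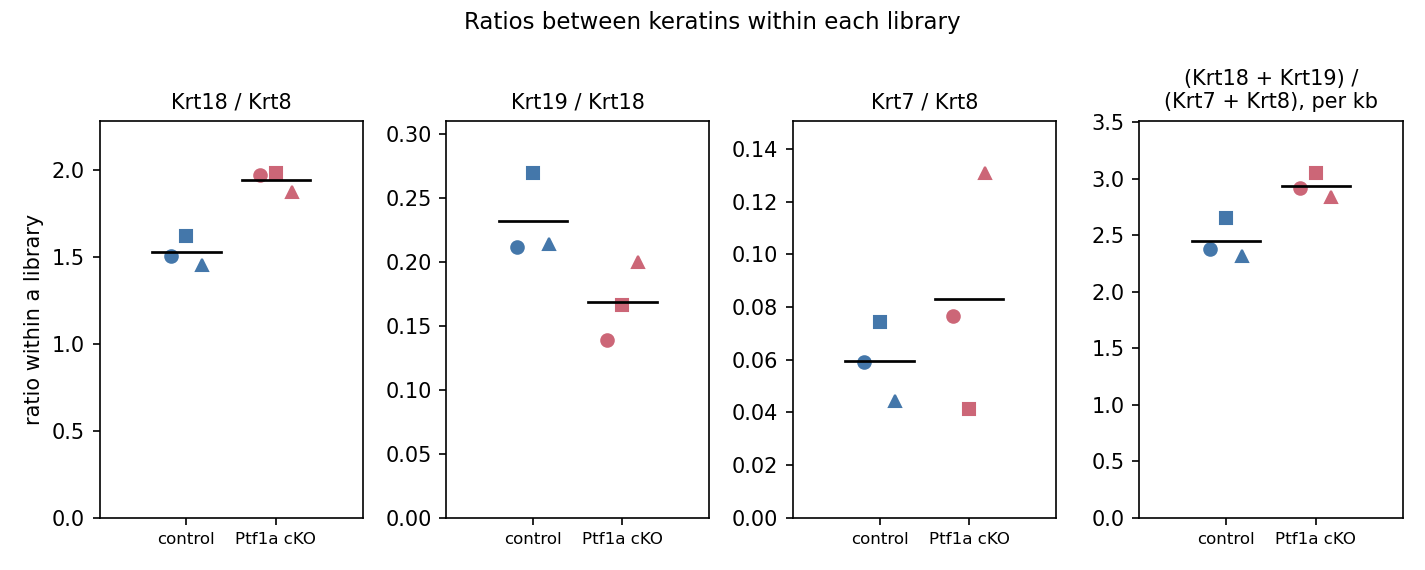
Ratios between keratins within each library, on linear axes that start at 0, for controls (blue) and Ptf1a cKO (red), with a marker shape for each replicate number and black lines at the means (n = 3). Krt18 to Krt8 is 1.45 to 1.62 in controls and 1.87 to 1.98 in Ptf1a cKO, the summed type I to type II ratio per kb of transcript is likewise apart, and Krt7 to Krt8 overlaps.

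To compare levels between genes, counts were divided by the length of the longest coding transcript. Per kb, the control means were 724 ± 29.5 normalized counts for Krt18, 349 ± 28.9 for Krt8, 153 ± 21.7 for Krt19, 96.9 ± 8.04 for Krt23 and 9.78 ± 1.76 for Krt7 (SD, n = 3 each). No neighbours in this order overlapped in the control libraries. In Ptf1a cKO the order of the means was Krt18 (1005 ± 212), Krt8 (379 ± 72.1), Krt23 (173 ± 19.3), Krt19 (154 ± 38.6) and Krt7 (14.3 ± 6.43), and Krt23 and Krt19 overlapped, with 158 to 195 and 113 to 190 normalized counts per kb. Krt7 has a second, shorter coding transcript of 642 bases in the annotation. With that length its level would be 62.4 in control and 90.9 in Ptf1a cKO, still the lowest of the 5.

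Summed per kb over Krt7, Krt8, Krt18 and Krt19, the level was 1182, 1234 and 1293 in the control libraries and 1348, 1910 and 1399 in the Ptf1a cKO libraries. Every Ptf1a cKO library was above every control, by 0.31 on the log2 scale (exact permutation test, two-sided p = 0.10), and by 0.15 without Ptf1a cKO replicate 2 and 0.14 with an equal total outside the digestive enzymes. The type I sum (Krt18 and Krt19) differed by 0.38 with the groups apart (exact permutation test, two-sided p = 0.10, the floor). The type II sum (Krt7 and Krt8) differed by 0.12 with the groups overlapping (exact permutation test, two-sided p = 0.60). Krt18 made up 724 of the control mean of 878 in the type I sum, so that sum is mostly Krt18. Krt8 made up 349 of the control mean of 359 in the type II sum. Krt23, also type I, is in neither sum. Among single genes, the groups did not overlap for 50.8% (26.5% higher in Ptf1a cKO). Type I to type II per kb gave a ratio of 2.45 ± 0.18 in the controls and 2.94 ± 0.11 in the Ptf1a cKO mice (SD, n = 3 each). The groups were apart (exact permutation test, two-sided p = 0.10). This ratio is made up mostly of Krt18 and Krt8 and so largely repeats their ratio. No background share was counted for it. Of the signal per kb of all 5 keratins, Krt18 took 54.3% ± 0.58 in control and 58.0% ± 2.23 in Ptf1a cKO, and Krt8 26.2% ± 1.61 and 21.9% ± 0.40 (SD, n = 3 each).

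The genes with the most similar profile over the 6 libraries were found by the root mean square difference of log2 values, each gene being centred on its own mean. For Krt23 these were Muc1, a cell surface mucin of ducts (0.034), Ifitm2 (0.052) and Sfrs18 (0.067), all of which were called higher. Closest to Krt18 was Lmna (0.084), which encodes the nuclear intermediate filament protein lamin A/C, followed by Rab43 (0.091) and Hgs (0.095). For Krt8 the closest were Slc10a3 (0.064) and Mbp (0.066), for Krt19 Ralgps2 (0.086), Prmt1 (0.088) and Polr1a (0.099), and for Krt7 Birc3 (0.067), Mfge8 (0.076) and Soga2 (0.110). Among the 10244 other genes, Krt8 ranked 220th by closeness to Krt18 (0.18), and Krt18 ranked 752nd by closeness to Krt8. Neither partner was thus among the nearest genes named above. Within the keratins, however, Krt8 was the closest to Krt18 and Krt18 the closest to Krt8. Krt19 came next in both cases (0.30 from Krt18 and 0.21 from Krt8). These are descriptions of 6 libraries from 2 groups, and genes with a similar change come out close.

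Of 16 other intermediate filament genes, 7 are in the table, and 3 were higher and 1 lower (median log2 fold change 0.42). For this list and those that follow, the shares over all genes were 17.1% called higher and 16.8% called lower. Vim, the filament of mesenchymal cells, averaged 271 ± 53.6 (controls) and 643 ± 105 (Ptf1a cKO) normalized counts (SD, n = 3 each), a rise of 1.24 log2 units (limma adjusted p = 8.49e-04), and Synm (1.20) and Des (0.73), filament proteins of muscle and stellate cells, were also higher. Nes, which encodes nestin, averaged 804 ± 95.8 (controls) and 133 ± 87.3 (Ptf1a cKO) normalized counts (SD, n = 3 each) and fell by 2.74 on the log2 scale (limma adjusted p = 5.73e-04), the largest change in the list. Its Ptf1a cKO values were 81.7, 234 and 83.3, all below the lowest control (732). Lmna, at 0.42 log2 units, missed the threshold (limma adjusted p = 0.0510).

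Of 15 genes for proteins that anchor keratins to desmosomes and to other filaments, 12 are in the table, of which 1 was higher, 1 lower and 10 not called, and their median log2 fold change was -0.12. Dsc2, a desmosomal cadherin, rose by 0.97 (limma adjusted p = 0.00290), and Plec, the cytolinker plectin, fell by 0.51 on the log2 scale (limma adjusted p = 0.0293), a call lost without control replicate 1 or 3 or Ptf1a cKO replicate 1. Without Ptf1a cKO replicate 2 the counts were 2 higher and 2 lower, and 3 were lower with the median of ratios or with an equal total outside the digestive enzymes. Dsp, which binds keratins at the desmosome, averaged 617 ± 13.8 normalized counts in the controls and 699 ± 66.4 in the Ptf1a cKO mice (SD, n = 3 each, limma adjusted p = 0.249).

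Of 22 genes for proteins that bind, fold or crosslink keratins, 18 are in the table, and 3 were higher, 1 lower and 14 not called (median 0.03). Hspa8, a constitutive chaperone of the HSP70 family, rose by 0.80, Ywhah, a 14-3-3 protein, by 0.58 and Fbf1 by 0.41. Hspb1, the small heat shock protein HSP27, fell by 1.09 on the log2 scale (limma adjusted p = 0.0115). Without Ptf1a cKO replicate 2 the counts of this list were 1 higher and 3 lower, without Ptf1a cKO replicate 3 1 was higher, without Ptf1a cKO replicate 1 2 were lower, and without control replicate 1 none was lower. The counts were 1 higher and 4 lower with an equal total outside the digestive enzymes, and 3 were lower with the median of ratios.

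Of 21 transcription factor genes tied to simple keratin or epithelial gene expression, 17 are in the table, and 7 were higher and 2 lower (median 0.55). Ehf (2.19), an epithelial ETS factor, Jun (1.58), a subunit of AP-1, Klf5 (1.28), Fosl2 (1.16), Elf3 (1.14) and Grhl2 (0.72), a regulator of epithelial junction genes, rose, as did Klf6 (0.49). Ovol1 fell by 1.44 and Ets2 by 0.86 on the log2 scale. Klf4, a KLF factor that binds the Krt19 promoter, averaged 67.3 ± 5.70 normalized counts in the controls and 82.1 ± 3.64 in the Ptf1a cKO mice (SD, n = 3 each, limma adjusted p = 0.138).

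**Figure D4:**
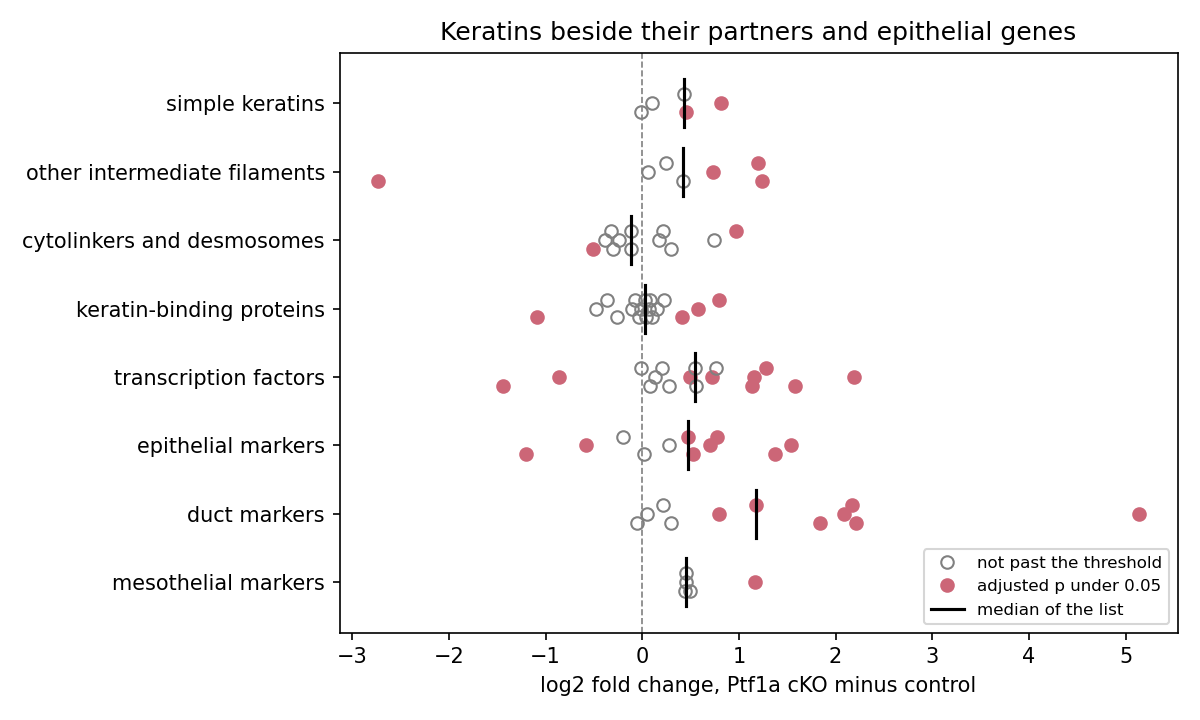
Log2 fold changes (Ptf1a cKO minus control, horizontal axis) of the 5 keratins and of the genes of 7 lists, with filled points for genes past the threshold, open points for the others and a black line at the median of each list. The medians are 0.44 for the keratins (0.17 with Ptf1a cKO replicate 3 dropped), 1.18 for duct markers, 0.47 for epithelial markers and -0.12 for cytolinkers and desmosomes.

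Duct and epithelial markers gave the tissue context of the keratins. Of 14 duct genes 11 are in the table, and 7 were higher and none lower, with a median of 1.18. Sox9, the duct transcription factor, averaged 125 ± 14.4 (controls) and 591 ± 65.5 (Ptf1a cKO) normalized counts (SD, n = 3 each), a rise of 2.21 log2 units, and Spp1 (5.14), which encodes osteopontin, Prom1 (2.17), Car2 (2.09), Ambp (1.84) and Slc4a4 (1.18) rose as well. The 95% interval of Sox9, from 1.91 to 2.51, lay wholly above those of the duct keratins Krt19 and Krt7. Aqp1 (-0.051), Bicc1 (0.049) and Pkhd1 (0.30) did not pass.

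All 11 general epithelial genes are in the table, and 6 were higher and 2 lower (median 0.47), a count that fell to 3 higher without control replicate 2 and with an equal total outside the digestive enzymes. Epcam averaged 226 ± 23.4 (controls) and 587 ± 13.6 (Ptf1a cKO) normalized counts (SD, n = 3 each), a rise of 1.37 log2 units. The tight junction genes Cldn4 (1.54), Lsr (0.77) and Cldn3 (0.70) also rose, while Spint1, a protease inhibitor, fell by 1.21 and Esrp2, an epithelial splicing regulator, by 0.58 on the log2 scale. Cdh1, the E-cadherin gene, averaged 995 ± 42.4 normalized counts in the controls and 1008 ± 110 in the Ptf1a cKO mice (SD, n = 3 each), an estimate of 0.014 log2 units with a 95% interval from -0.25 to 0.28.

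The pancreas was recognisable from its own cell types. The 11 acinar genes are all in the table (9 lower, none higher, median -2.29, Cpa1 -2.58), as are the 7 islet genes, none of which was called (median 0.08, Ins2 2900 to 24002 normalized counts), although 3 were called higher without Ptf1a cKO replicate 2. Other cells that carry simple keratins were looked for by their markers. Of 8 mesothelial genes 5 are in the table, with sums of 120 to 174 normalized counts in the controls and 172 to 337 in Ptf1a cKO libraries, the highest in Ptf1a cKO replicate 2, and 1 (Lrrn4) was higher. No mesothelial gene was called in 5 of 6 fits with a library left out, all but that without Ptf1a cKO replicate 1, and Msln (0.50, limma adjusted p = 0.0958) missed the threshold. Of 14 genes of gut and mucous epithelium 4 are in the table and 1 was higher, Muc5ac (4.76), which had 1.33 to 7.89 normalized counts in the controls and 115 to 224 in the Ptf1a cKO libraries, and Vil1 lay between 7.05 and 56.0 (2 of these genes were higher without Ptf1a cKO replicate 2). Tff2, by far the most abundant of these genes, had 13418 to 23054 normalized counts over all libraries and was not called (-0.21). None of 7 basal and squamous genes, including Krt5, Krt14 and Trp63, is in the table. Among cell types without keratins, 7 of 8 fibroblast and stellate genes were higher (median 1.24, Col1a1 1.96), as was 1 of 7 endothelial genes (median -0.07, Pecam1 -0.10). Of 11 leukocyte symbols 8 are in the table (Emr1 is an older symbol of Adgre1) and 6 were higher (median 1.33, Ptprc 1.60 with limma adjusted p = 0.0772). Proliferation genes mark dividing cells of any type, with or without keratins, and 2 of the 3 in the table (of 6) were higher (median 1.94, Mki67 2.06). Without control replicate 1 or 2 no proliferation gene was called, and the endothelial count was 0 without control replicate 1 or 2 or Ptf1a cKO replicate 3, but rose to 2 when Ptf1a cKO replicate 2 was dropped. None of the listed genes in the table was at 0 in all libraries. The part of these other cells, and of dividing cells, in the levels of Krt18 and Krt23 was not tested.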

How the data were processed

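The authors deposited 1 table of normalized read counts per gene symbol (unit: signal), scaled across the 6 libraries. Per the submitters' processing notes, 50-nucleotide single-end reads were processed with TopHat2 2.0.4, Bowtie 0.12.7.0, SAMtools 0.1.18.0 and HTSeq 0.6.0 on mm9, and the study used edgeR with TMM. The annotation and the filter on low genes are not given in the sources used here. The 3 entries that name no gene held 75.7% to 82.6% of a library and were left out. Most of this was the entry for alignments that were not unique, with 74.4% to 81.1% of a library. The study gives the uniquely aligned reads of each library, but the values are not whole, so the reads behind each value are unknown. No counting error is given, and precision rests on 3 mice per group. Of the symbols, 17 had become dates and were tested but not named.

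Values were divided by 13.6 and log2(value + 0.25) was compared with limma 3.58.1 (R 4.3.3) with the variance trended on the mean, without covariates, two-sided, with Benjamini-Hochberg adjustment and a threshold of 0.05. Fold changes are on this scale, which understates those of low genes. A minimum mean of 0.25 removed 0 genes. The fit was tested on simulated data. Python 3.11.15 was used for ratios, sums and exact permutation tests. Positions and transcript lengths are from GENCODE M21 (GRCm38), matched by symbol, and upstream windows from RefSeq (GRCm38.p6) were matched for 4 of 5 keratins and printed only outside the GENCODE gene. The keratins and all lists were chosen with earlier results of these data known. The text names every keratin, the genes of each list past the threshold (up to the 6 largest changes), set defining markers (for lists of other cell types, the markers and examples) and the 3 nearest genes to each keratin, with some genes that the rule would name not reported here. Klf6, Lmna, Dsp, Klf4, Msln, Aqp1, Bicc1, Pkhd1 and Tff2 were added after their values were seen. Alternatives were other pseudocounts, filters, scalings and variance models, sex, the replicate number as a block, and each library left out.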

Additional observations from a re-analysis of the deposited data

How the results depend on the processing

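Krt23 stayed higher and past the threshold under every alternative run, with log2 fold changes from 0.65 to 2.29, and with 1 library left out from 0.73 to 0.88. Krt18 stayed higher but lost its call with the median of ratios (0.43), with the same total without digestive enzymes (0.28) and with limma without a trend (0.45), and ran from 0.29 to 0.54 with 1 library left out. Krt8 turned to -0.066 with the same total without digestive enzymes and ran from -0.046 to 0.19 with 1 library left out. Krt19 was 0.033 with the same 75th percentile and ran from -0.18 to 0.19. With libraries set to the same total, all 5 keratins were called, with changes of 1.84 (Krt7), 1.60 (Krt8), 1.95 (Krt18), 1.47 (Krt19) and 2.29 (Krt23), against a median of 1.49 over all genes. Relative to that median they were 0.36, 0.11, 0.46, -0.021 and 0.81, an expression chosen after seeing the data. The number of keratins called was 5 with the same total and 1 with the same total without digestive enzymes, the median of ratios or limma without a trend, and between 1 and 2 with 1 library left out. Over all genes, the same total gave 9590 higher and 129 lower, and the same total without digestive enzymes 1082 higher. With 1 library left out, 1174 to 1854 genes were higher and 1182 to 1747 lower. The Krt7 to Krt8 difference ran from -0.047 to 0.79 with 1 library left out. The summed keratin difference was 1.81 with the same total, 0.14 with the same total without digestive enzymes and between 0.15 and 0.40 with 1 library left out. With the same total, the genes called higher were 12 of 12 for desmosomes and cytolinkers, 17 of 18 for keratin-binding proteins, 16 of 17 for transcription factors, 10 of 11 for epithelial genes, 6 of 7 for other intermediate filaments, 11 of 11 for duct, 7 of 7 for islet and endothelium, 5 of 5 for mesothelium and 4 of 4 for gut genes. No mesothelial gene was called with the same total without digestive enzymes, and 2 other intermediate filament genes were higher. The cause of these shifts was not tested.

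The sample labels give no pairing of same-numbered libraries beyond the number. Their deviations from the group means correlated by 0.039, 0.13 and 0.14, in each case the highest value for that control library. Pairs with different numbers ran from -0.20 to 0.083, and Ptf1a cKO replicate 1 correlated best with control replicate 2. Correlations this small cannot decide whether the libraries were paired. With the replicate block, 3525 genes were called in place of 3475, and Krt18 (0.45, adjusted p = 0.0449) and Krt23 (0.82, adjusted p = 0.00359, limma) were the keratins called, as without it. In the lists the block gave 2 genes higher in place of 1 for desmosomes and cytolinkers, 2 lower in place of 1 for keratin-binding proteins and 0 higher in place of 1 for mesothelium. A minimum mean of 5 scaled counts removed Krt7, which then has no value. The read number behind each value could not be recovered, so how far it limits Krt7, the lowest of the 5, is unknown.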
